A study of Mus musculus with 16 samples.

Results

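The 10 genes described here, Arntl, Clock, Npas2, Per1, Per2, Per3, Cry1, Nr1d1, Nr1d2 and Dbp, belong to the circadian clock. They were chosen by name, and all 10 were among the 55487 genes measured in the liver of 16 mice, with 1 RNA-seq library per mouse. Transcript levels are given as TPM, a measure of transcript abundance corrected for gene length and library total. Of the 10 genes, 8 had a mean of at least 1 TPM and entered the tests across genes, and Arntl and Npas2 did not.

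All 16 mice were male C57BL6/J. By the sample labels they were lean and 10 weeks old when a high fat diet with 60% of energy as fat began, and stayed on it for 8 weeks. They were then housed singly, and their fatty diet held either standard (SP) or raised (HP) protein. Vehicle or G108, a long-acting peptide agonist of the glucagon receptor, was injected under the skin daily at 9 am over 22 days, G108 at 2.5 nmol/kg. Each of the 4 groups, G108 SP, vehicle SP, G108 HP and vehicle HP, held 4 mice. Every group therefore shared the high fat diet and the daily injection, and no lean or uninjected mice were among the samples. All mice were culled on the same day after a 4 h fast. The hour and the order of the culls were not given in the sources used here. The phase of the daily cycle at the cull, and whether all mice shared it, is therefore not known, and no rhythm could be measured.

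The clock is a feedback loop of transcription. ARNTL (also named BMAL1) pairs with CLOCK or NPAS2 and activates genes through E-boxes. The products of the Per and Cry genes repress that pair, and NR1D1 and NR1D2 (REV-ERB alpha and beta) repress Arntl through elements they share with the activating ROR proteins. DBP is an output factor that binds D-boxes. In liver the loop drives daily rhythms of metabolism, and Per1 is also known as a gene that cAMP and glucocorticoid signals can switch on directly. The glucagon receptor signals through cAMP.

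The start regions shown are those of Per1, Cry1, Per3 and Arntl that held a match to a binding site searched for. They were chosen for these matches and not for any change in level. The sequences are from RefSeq on GRCm38.p6 and run from 250 bases before to 50 bases after an annotated transcription start. Capitals mark the E-box CACGTG, the D-box TTATGTAA, the ROR/REV-ERB element TAGGTCA and TGACG, the core of the cAMP response element (CRE). Both strands were searched for these, for the other D-box TTACGTAA and for the full CRE TGACGTCA, which contains the core.
Per1, first start, chr11:69098699-69098998, plus strand: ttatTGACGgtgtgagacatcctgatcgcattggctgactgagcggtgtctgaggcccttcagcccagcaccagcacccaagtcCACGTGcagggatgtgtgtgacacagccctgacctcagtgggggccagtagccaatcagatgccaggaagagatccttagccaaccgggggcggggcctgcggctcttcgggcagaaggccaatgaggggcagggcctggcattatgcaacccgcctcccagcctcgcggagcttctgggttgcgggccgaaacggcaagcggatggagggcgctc
Per1, second start, chr11:69099902-69100201, plus strand: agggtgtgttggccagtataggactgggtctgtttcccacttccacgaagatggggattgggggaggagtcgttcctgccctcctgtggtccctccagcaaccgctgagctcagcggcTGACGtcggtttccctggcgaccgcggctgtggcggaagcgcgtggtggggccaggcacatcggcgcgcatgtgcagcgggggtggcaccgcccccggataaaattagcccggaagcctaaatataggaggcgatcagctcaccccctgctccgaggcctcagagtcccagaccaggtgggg
Cry1, chr10:85185005-85185304, minus strand: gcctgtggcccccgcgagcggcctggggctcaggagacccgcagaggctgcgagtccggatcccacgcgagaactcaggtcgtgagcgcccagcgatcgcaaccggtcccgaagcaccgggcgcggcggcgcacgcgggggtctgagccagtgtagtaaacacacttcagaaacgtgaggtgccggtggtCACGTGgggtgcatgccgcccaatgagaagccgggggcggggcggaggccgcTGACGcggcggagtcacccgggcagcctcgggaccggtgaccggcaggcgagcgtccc
Per3, chr4:151044616-151044915, minus strand: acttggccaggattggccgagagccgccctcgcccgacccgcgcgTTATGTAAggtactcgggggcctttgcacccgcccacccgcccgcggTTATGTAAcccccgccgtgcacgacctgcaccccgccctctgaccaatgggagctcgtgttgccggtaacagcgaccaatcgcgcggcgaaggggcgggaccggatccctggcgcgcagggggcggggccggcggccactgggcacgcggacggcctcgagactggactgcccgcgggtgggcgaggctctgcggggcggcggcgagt
Arntl, chr7:113207261-113207560, plus strand: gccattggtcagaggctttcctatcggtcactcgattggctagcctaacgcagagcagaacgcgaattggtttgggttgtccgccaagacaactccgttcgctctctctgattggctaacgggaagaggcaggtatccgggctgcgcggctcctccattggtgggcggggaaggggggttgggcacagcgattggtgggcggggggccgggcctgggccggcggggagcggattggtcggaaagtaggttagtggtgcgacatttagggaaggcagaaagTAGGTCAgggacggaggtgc

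A start region was given for 9 of the 10 genes, with 13 regions in all, and none was given for Per2. In Per1 the E-box began 166 bases before the first start and CRE cores lay 246 bases before the first and 132 bases before the second start. Both Per1 regions lie inside the span of the gene in the GENCODE annotation of GRCm38, which is chr11:69095217-69109960. In Cry1 the E-box lay 60 bases and a CRE core 8 bases before the start. Per3 held the D-box TTATGTAA at 205 and at 158 bases before the start. In Arntl the ROR/REV-ERB element began 30 bases after the start. The full CRE was found in 0 of the 13 regions. The regions not shown, those of Dbp, Nr1d1, Nr1d2, Clock and Npas2 and another of Arntl, held no match to any site searched for. Over 32851 start regions of the genome, 7.15% held the E-box, 1.06% a D-box, 2.61% the ROR/REV-ERB element, 1.79% the full CRE and 20.8% the CRE core. These matches describe the letters and say nothing of binding in these livers.

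Depth, recovered from the deposited values, was 27.8 M to 45.03 M reads per library, which limits the precision of the weakly expressed genes through counting error. All 6 hepatocyte markers (Alb, Apoa1, Ttr, Cps1, Cyp2e1 and Tat) were above a mean of 1 TPM, as were 4 of 5 Kupffer cell, 4 of 4 endothelial, 3 of 4 stellate cell and 3 of 3 blood markers. Of the cholangiocyte (4), adipocyte (3) and skeletal muscle (3) markers 0 were, and of the 3 exocrine pancreas markers only Cela1. TPM within a library add up to a fixed total, so the libraries were also scaled by the median ratio of each gene to its mean over libraries, as in the DESeq2 tool of the study. Against the TPM as deposited this mattered most for the G108 SP group, whose scaling factors were 1.17 to 1.54 against 0.681 to 0.964 in vehicle SP. Levels below are scaled TPM unless stated as deposited. In bulk liver, fewer cells of a type and less RNA per cell cannot be told apart.

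One library stood apart, that of vehicle SP mouse 4. Over genes tested, its log2 levels correlated with those of the other 3 mice of its group at r = 0.925 to 0.946, against 0.974 to 0.980 among the other 3. Its period genes also stood apart. Per2 was at 35.6 scaled TPM against a mean of 8.36 in the other 3 mice, a log2 difference of 1.97 that lay above 99.7% of the genes tested. Per3 was at 12.4 against 5.02 and Per1 at 14.5 against 7.28. Of other clock components, Ciart, a repressor of the ARNTL and CLOCK pair, was at 24.0 against 7.98 and Tef, a relative of Dbp, at 61.6 against 26.2. Nr1d1 was not shifted in the same way, at 40.5 against 42.3. By log2 difference Nr1d2 lay above 86.7% of the genes tested, Dbp above 75.3%, Nr1d1 above 49.9%, Clock above 30.2% and Cry1 above 22.8%. Not all other components were higher, with Hlf (4.34 against 5.90), Rora (1.52 against 2.18) and Cry2 (3.97 against 4.60) lower. In the same mouse Pck1, a gluconeogenic gene, was at 116 against 397 and the glucocorticoid target Fkbp5 at 0.534 against 1.91, and the sum of the 3 blood markers was 1560, the highest of the 16 libraries. The next highest sum was 1211, in G108 HP mouse 3, which also had the highest Per1 and Per2 of its group. The part of blood RNA in these values was not tested. Beside several values below, the value without this mouse is given.

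**Figure D1:**
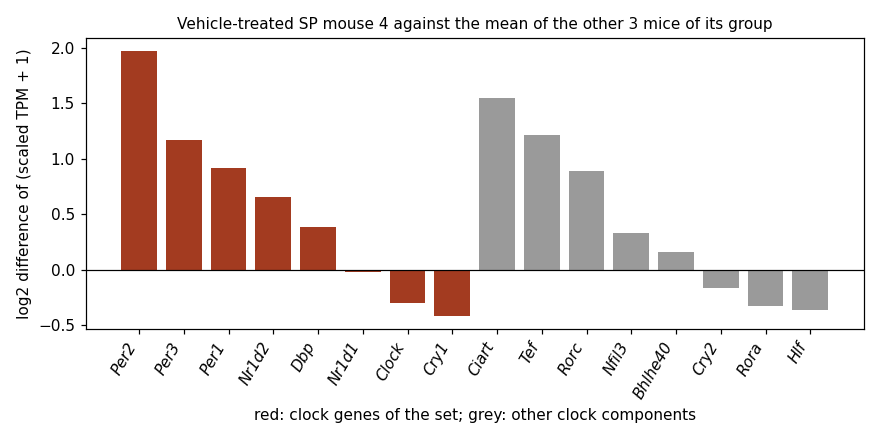
Difference between vehicle SP mouse 4 and the mean of the other 3 vehicle SP mice, as log2 of (scaled TPM + 1), for the 8 clock genes tested (red) and 8 other clock components (grey), 1 bar per gene. Per2 (1.97), Ciart (1.55), Tef (1.21) and Per3 (1.16) were the highest, Nr1d1 (-0.02) was level and Cry1 (-0.42) was the lowest.

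The levels of the 10 genes spanned a wide range, and TPM, being per length, allow them to be ordered. Over the 16 mice the mean TPM as deposited was 71.6 for Dbp, 37.3 for Nr1d1, 12.9 for Nr1d2, 11.2 for Per1 and 10.5 for Per2. It was 5.24 for Per3, 1.88 for Cry1, 1.13 for Clock, 0.212 for Arntl and 0.0411 for Npas2. Dbp was above Nr1d1 in every library (Nr1d1/Dbp ratio 0.327 to 0.676), Per2 above Per3 (ratio 1.02 to 3.09) and Per3 above Cry1 (1.57 to 14.1). Nr1d2 and Per1 were not ordered (Per1/Nr1d2 ratio 0.446 to 1.39), nor were Per1 and Per2 (0.408 to 2.01) or Clock and Cry1 (0.406 to 1.25). The lowest Clock value, 0.489 TPM, was above the highest Arntl value, 0.333. Exons of Dbp share 539 bases with Sphk2 and those of Nr1d1 share 263 with Thra, both on the opposite strand, and since strand use in counting was not stated, reads of those stretches may belong to either gene.

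**Figure D2:**
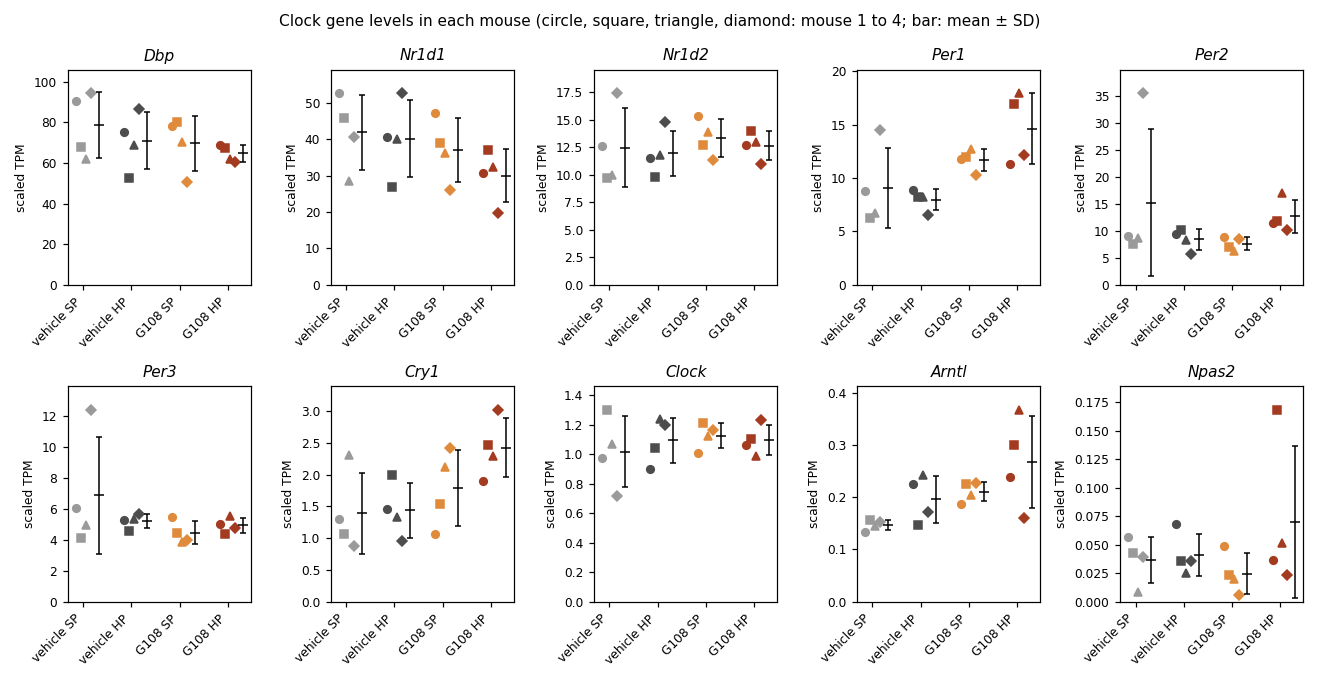
Scaled TPM of the 10 clock genes in each of the 16 mice, 1 panel per gene with its own linear axis from 0, with the 2 vehicle groups before the 2 G108 groups, mouse 1 to 4 as circle, square, triangle and diamond, and mean ± SD beside the points. Per1 in G108 HP (11.4 to 18.0) lies above vehicle HP (6.59 to 8.88), and vehicle SP mouse 4 lies far above its group for Per2 (35.6) and Per3 (12.4).

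With the scaled values, 0 of the 8 clock genes tested passed the threshold in any of 5 comparisons (limma, adjusted p under 0.05 over 11839 genes). On SP, G108 against vehicle gave 322 calls over all genes, 2.72% of those tested, and on HP 145, 1.22%. For HP against SP in G108 mice, the same in vehicle mice and the interaction between treatment and protein content, limma called 0 of all genes (0%). In those 3 comparisons 639 (5.4%), 466 (3.94%) and 854 genes had an unadjusted p under 0.05, and limma voom on recovered reads also called 0. Among the clock genes an unadjusted p under 0.05 was seen for 0 of 8 on SP, for 2 on HP (Per1 and Cry1) and for 1 in the interaction (Per2), against 17.7%, 11.3% and 7.21% of all genes, and for 0 in either comparison of diets. The median log2 fold change of the 8 genes was -0.04 on SP and 0.04 on HP, against -0.01 and 0.00 over all genes.

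Scaling decided the calls on SP. With TPM as deposited, the median gene was 0.60 higher on the log2 scale in G108 SP than in vehicle SP and 9185 genes, 77.6%, were called, so 6 of the 8 clock genes (Clock, Per1, Cry1, Nr1d1, Nr1d2 and Dbp), all higher, is near that background. Per1 (log2 1.11, SE 0.171, limma adjusted p = 4.00e-04) and Nr1d2 (0.84, SE 0.135, adjusted p = 4.88e-04) lay above that shift of the median gene, as did Cry1 (0.70, adjusted p = 0.0187). Nr1d1 (0.59) and Dbp (0.59) lay close to it. Clock was at 0.48, but with means of 0.842 TPM in vehicle SP and 1.55 in G108 SP it cannot be placed. These fold changes are of TPM + 1, which understates genes as low as Clock. After scaling, Clock was at 0.08 on SP against -0.01 for the median gene. On HP the median gene was only 0.09 higher as deposited and 132 genes, 1.11%, were called. Per1 was then the only clock gene called, at log2 0.89 (SE 0.171, limma adjusted p = 0.02001).

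**Figure D3:**
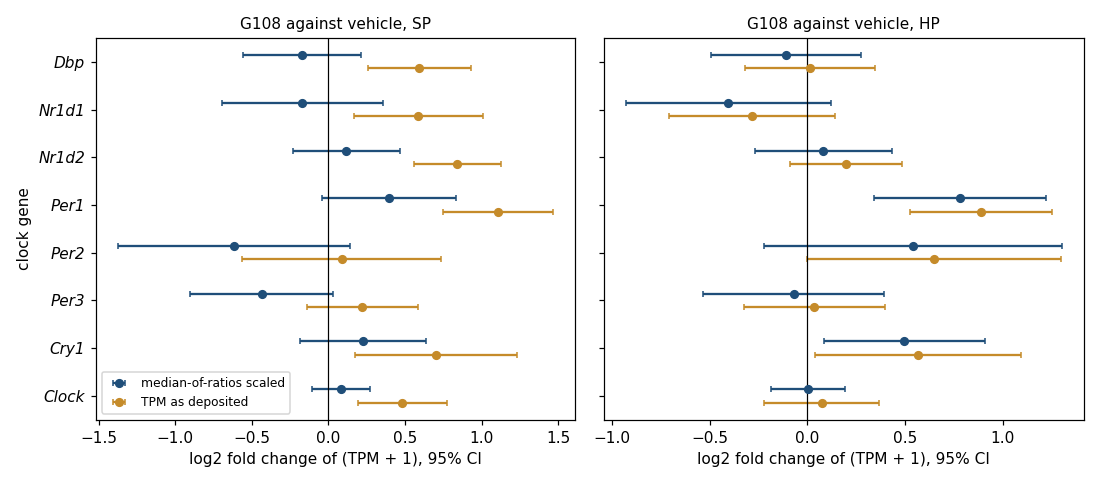
Log2 fold changes of (TPM + 1) for G108 against vehicle on SP (left) and HP (right) for the 8 clock genes tested, with 95% confidence intervals from limma, after scaling (blue) and with TPM as deposited (ochre). Without scaling the SP values are shifted upwards, while on HP Per1 is at 0.78 scaled and 0.89 as deposited.

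Arntl, Clock and Npas2 encode the activators. Arntl was read at low depth, with 26 to 68 reads per library. Its scaled TPM were 0.135, 0.156, 0.146 and 0.153 in vehicle SP and 0.188, 0.225, 0.204 and 0.227 in G108 SP. They were 0.226, 0.147, 0.243 and 0.172 in vehicle HP and 0.240, 0.301, 0.369 and 0.161 in G108 HP. All 4 G108 SP mice were above all 4 vehicle SP mice, while the groups overlapped on HP. Of the 11839 genes tested, which leave out Arntl, 9.21% were separate in this way on SP. In limma voom on recovered reads, which can take genes of this depth, the log2 fold change was 0.51 on SP (SE 0.272, adjusted p = 0.311) and 0.41 on HP (SE 0.250, adjusted p = 0.614), so neither passed. In limma without the filter on low values the adjusted p was 0.540 and 0.722.

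Clock, the partner of Arntl, had the smallest spread of the 8 genes in log2(scaled TPM + 1) (with TPM as deposited, Nr1d2 had). The added 1 narrows the spread of genes as low as Clock. Its means were 1.02 ± 0.242 (SD, n = 4) scaled TPM in vehicle SP, 1.09 ± 0.154 in vehicle HP, 1.13 ± 0.0862 in G108 SP and 1.10 ± 0.101 in G108 HP. The log2 fold change with G108 was 0.08 on SP (95% interval -0.11 to 0.27, and 0.01 without vehicle SP mouse 4) and 0.00 on HP (-0.19 to 0.19). Npas2, which can stand in for Clock, was near the limit of detection with 1 to 9 reads in 15 libraries and 20 reads in G108 HP mouse 2. At that depth no difference in Npas2 was detectable, the 95% interval of its log2 fold change in limma voom running from -2.22 to 0.88 on SP and from -0.96 to 1.71 on HP.

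Per1, the period gene that cAMP can induce, had positive log2 fold changes with G108 on both diets, neither of which passed the threshold. On HP its scaled TPM were 8.88, 8.22, 8.27 and 6.59 with vehicle and 11.4, 17.0, 18.0 and 12.2 with G108. As deposited they were 7.39, 8.77, 7.55 and 5.75 with vehicle and 11.6, 16.04, 15.1 and 15.1 with G108. The groups did not overlap on either scale. In scaled values 8.15% of all genes tested were separate in this way, and as deposited that share was not counted. The log2 fold change was 0.78 (SE 0.206, 95% interval 0.34 to 1.22, limma unadjusted p = 0.00184, adjusted p = 0.0941). Leaving out each library in turn moved it only between 0.68 and 0.89, and it was called (0.78, SE 0.147, adjusted p = 0.0222) where vehicle SP mouse 4, which is in neither group, was left out of the shared estimate of the spread. Without 1 of the other libraries the limma adjusted p was as high as 0.306, and it was 0.195 with a replicate block and 0.198 without the filter on low values.

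On SP, Per1 was at 8.80, 6.30, 6.75 and 14.5 scaled TPM with vehicle and at 11.8, 11.99, 12.7 and 10.3 with G108. Vehicle SP mouse 4 was above all 4 treated mice, and the other 3 were below all 4. The log2 fold change was 0.40 (SE 0.206, limma adjusted p = 0.324), and 0.63 (SE 0.159, adjusted p = 0.0653) without that mouse. With TPM as deposited the 4 vehicle mice (6.01 to 9.88) and the 4 treated mice (13.9 to 19.5) did not overlap. On that scale the median gene was 0.60 higher on SP and 77.6% of all genes were called. The share of all genes whose groups separate was not counted on that scale. The difference between diets in the response of Per1 was 0.39 (SE 0.291, 95% interval -0.24 to 1.01, limma interaction, adjusted p = 0.590) and did not pass. It was 0.16 (SE 0.216) without vehicle SP mouse 4 and -0.22 (SE 0.241) with TPM as deposited, so no direction can be given.

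The scaled values of Per2, a repressor of the loop, pointed opposite ways on the 2 diets, but with TPM as deposited both log2 fold changes were positive, 0.09 on SP and 0.65 on HP. On SP it was at 9.05, 7.46, 8.57 and 35.6 scaled TPM with vehicle and at 8.76, 6.92, 6.32 and 8.501 with G108. On HP it was at 9.41, 10.1, 8.28 and 5.78 with vehicle and at 11.5, 11.9, 17.0 and 10.2 with G108. The G108 HP mice were above all mice of G108 SP and of vehicle HP, and on SP the groups overlapped. The log2 fold change with G108 was -0.62 (SE 0.356) on SP and 0.54 (SE 0.356) on HP, with limma adjusted p of 0.370 and 0.649. The interaction was 1.16 (SE 0.504, limma unadjusted p = 0.0366, adjusted p = 0.575). Much of its size came with 1 library. Without vehicle SP mouse 4 the SP value was -0.13 (SE 0.183) and the interaction 0.67 (SE 0.250, limma unadjusted p = 0.0184, adjusted p = 0.822). That mouse is in neither HP group, but it enters the shared estimate of the spread. Without it the HP value was 0.54 (SE 0.170, limma unadjusted p = 0.00663, adjusted p = 0.134). As deposited the interaction was 0.56 (SE 0.433). HP against SP with G108 was 0.65 (SE 0.356, limma adjusted p = 0.858). Without vehicle SP mouse 4 it was 0.65 (SE 0.170, limma unadjusted p = 0.00192, adjusted p = 0.451), which did not pass either.

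In scaled values, Per1 and Per2 were 2 of the 8 clock genes whose G108 and vehicle groups did not overlap on HP, against 8.15% of all genes tested. On SP 0 of the 8 were separate, against 9.21% of all genes. Between HP and SP with G108, Per2 alone was separate, against 4.27% of all genes.

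Per3, the remaining period gene, was at 6.01, 4.10, 4.96 and 12.4 scaled TPM in vehicle SP and at 5.48, 4.45, 3.86 and 3.95 in G108 SP. Its log2 fold change on SP was -0.44 (SE 0.218, limma adjusted p = 0.310), and -0.15 (SE 0.124) without vehicle SP mouse 4. On HP the groups were close, with 5.20 ± 0.458 (SD, n = 4) with vehicle and 4.91 ± 0.490 with G108, a log2 fold change of -0.07 (95% interval -0.54 to 0.40). As deposited the sign on both diets was positive, 0.22 on SP and 0.04 on HP.

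Cry1, which encodes the partner of the period proteins in repression, was read 74 to 284 times per library. On HP it was at 1.46, 2.00, 1.34 and 0.953 scaled TPM with vehicle and at 1.90, 2.47, 2.30 and 3.03 with G108, with 1 vehicle mouse inside the range of the treated mice. The log2 fold change was 0.50 (SE 0.193, 95% interval 0.08 to 0.91, limma unadjusted p = 0.0214, adjusted p = 0.299). On SP it was at 1.31, 1.07, 2.32 and 0.880 with vehicle and at 1.07, 1.53, 2.12 and 2.42 with G108. These overlapped, with a log2 fold change of 0.23 (SE 0.193, limma adjusted p = 0.521), or 0.12 (SE 0.202) without vehicle SP mouse 4.

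Nr1d1 and Nr1d2 encode the REV-ERB repressors. Nr1d1 was at 52.8, 45.8, 28.5 and 40.5 scaled TPM in vehicle SP and at 47.1, 38.8, 36.3 and 25.9 in G108 SP. It was at 40.7, 26.9, 40.0 and 52.7 in vehicle HP and at 30.8, 37.0, 32.3 and 19.8 in G108 HP. The groups overlapped on both diets, and mice of 1 group differed by more than the group means did. The log2 fold change was -0.17 (95% interval -0.69 to 0.35) on SP and -0.40 (-0.93 to 0.12) on HP. The SP value was 0.59 with TPM as deposited, so no direction can be given on SP. Nr1d2 had group means of 11.97 to 13.3 scaled TPM, and a log2 fold change of 0.12 (95% interval -0.23 to 0.47, and 0.28 without vehicle SP mouse 4) on SP and 0.08 (-0.27 to 0.43) on HP.

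Dbp, the output factor and the most abundant of the 10, was at 90.7, 67.8, 61.9 and 94.6 scaled TPM in vehicle SP and at 78.1, 80.0, 70.3 and 50.5 in G108 SP. It was at 75.2, 52.8, 69.1 and 86.5 in vehicle HP and at 68.7, 67.6, 61.9 and 60.5 in G108 HP. These ranges overlapped, with log2 fold changes of -0.17 (95% interval -0.56 to 0.21, and -0.08 without vehicle SP mouse 4) on SP and -0.11 (-0.49 to 0.27) on HP. Their signs too turned without scaling, to 0.59 and 0.01.

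A ratio of 2 genes of the same library does not depend on scaling between libraries. The 28 ratios among the 8 clock genes were computed after the values were seen and are described without a test. For comparison the same was counted over the 67169845 pairs of the 11591 genes tested that were above 0 in every library. Per1/Per3 was 1.46, 1.54, 1.36 and 1.17 in vehicle SP, 1.68, 1.80, 1.56 and 1.17 in vehicle HP, 2.16, 2.70, 3.29 and 2.60 in G108 SP and 2.26, 3.92, 3.27 and 2.56 in G108 HP. All 8 treated mice (2.16 to 3.92) lay above all 8 vehicle mice (1.17 to 1.80), on either diet, and no other of the 28 ratios separated the 16 mice by treatment, against 1.86% of all gene pairs. Vehicle SP mouse 4, at 1.17, was at the low end of the vehicle range although both its Per1 and its Per3 were high. Means were 1.38 ± 0.158 (SD, n = 4) in vehicle SP, 1.55 ± 0.277 in vehicle HP, 2.69 ± 0.466 in G108 SP and 3.00 ± 0.743 in G108 HP.

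Per1 stood in most of the other separations. On HP 6 of the 28 ratios did not overlap between G108 and vehicle, against 9.0% of all pairs, and Per1, which the ratios share, was in 5 of them, higher with G108 against Clock, Per3, Nr1d1, Nr1d2 and Dbp. The sixth was Nr1d1/Nr1d2, 2.74 to 3.58 with vehicle and 1.81 to 2.64 with G108. On SP 3 ratios did not overlap, near the 10.4% of all pairs, namely Per1/Per2, Per1/Per3 and Per3/Nr1d2. Per1/Dbp was 0.0761 to 0.156 with vehicle and 0.165 to 0.291 with G108 on HP, whereas on SP the highest vehicle mouse (0.153) was just above the lowest treated mouse (0.150). Diet separated 1 ratio with G108 (Per2/Nr1d2) and 0 with vehicle, against 4.73% and 2.16% of all pairs.

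**Figure D4:**
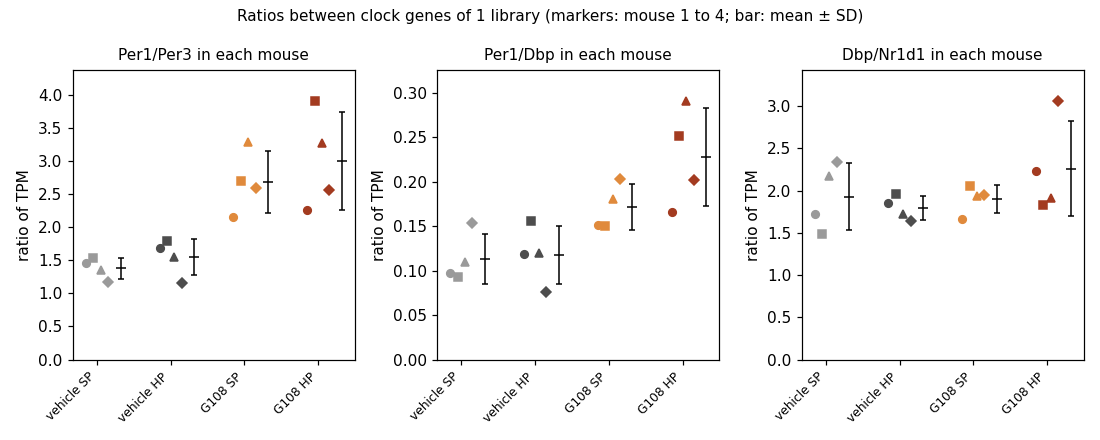
Ratios of TPM between clock genes of the same library in each of the 16 mice, with mouse 1 to 4 as circle, square, triangle and diamond and mean ± SD beside the points, linear axes from 0. Per1/Per3 (left) separates the 8 G108 mice (2.16 to 3.92) from the 8 vehicle mice (1.17 to 1.80), Per1/Dbp (middle) separates them on HP only, and Dbp/Nr1d1 (right) separates none of the groups.

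Other genes of the clock and of the signals that reach Per1 were listed by function. Over all genes tested, 2.72% were called on SP and 1.22% on HP. Of 18 other clock components 15 were tested, and 1 was called on SP, Rora, an activator that shares its sites with the REV-ERBs (log2 0.41, SE 0.101, limma adjusted p = 0.0455). Limma called 0 of 15 for HP, where 3 had an unadjusted p under 0.05, against 11.3% of all genes. Of 11 clock-controlled liver outputs, 1 was called on SP, Elovl3, a fatty acid elongase (1.25, SE 0.309, limma adjusted p = 0.0450), with 0 called on HP (2 of the 11 at an unadjusted p under 0.05). Both SP calls ended without vehicle SP mouse 4, without the filter on low values, with only the groups compared and with a replicate block. The list medians were 0.06 and 0.20 on SP and 0.06 and 0.04 on HP.

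The cAMP-responsive genes held more calls, beside 2.72% of all genes called on SP and 1.22% on HP. Of 6 tested of 8, 4 rose on SP, Ppargc1a, a coactivator of gluconeogenesis (0.89, limma adjusted p = 0.00274), Crem, a cAMP-induced regulator (0.66, adjusted p = 0.0115), the kinase gene Sik1 (1.58, adjusted p = 0.0132) and Pck1 (1.70, adjusted p = 0.0243). On HP 2 of 6 rose, Ppargc1a (0.66, limma adjusted p = 0.0337) and Sik1 (1.47, adjusted p = 0.0371). Mean TPM of Ppargc1a as deposited were 0.741 in vehicle SP, 0.907 in vehicle HP, 3.56 in G108 SP and 2.18 in G108 HP. It thus passed the filter on low values only through the groups where it is high. These counts of 4 and 2 were the same without vehicle SP mouse 4 but not in every fit. On HP they fell to 0 with a replicate block and without the filter on low values and to 1 with only the groups compared, and on SP to 3 without the filter and to 1 with only the groups compared. With TPM as deposited 6 of 6 were called on SP, where 77.6% of all genes were. The median of the list was 1.07 on SP and 0.87 on HP. Of 7 glucocorticoid-responsive genes, which include Per1, only Sgk1, a kinase gene, rose, with log2 fold changes of 0.84 for SP (limma adjusted p = 0.00497) and 1.08 for HP (adjusted p = 0.00929). Without vehicle SP mouse 4 and with TPM as deposited, Per1 was called beside it on HP. The median of this list was 0.28 on SP and 0.47 on HP, and 2 and 4 of the 7 had an unadjusted p under 0.05, against 17.7% and 11.3% of all genes. The list did not move in 1 direction on HP. By group means Klf9 (16.6 scaled TPM with vehicle, 9.36 with G108), Fkbp5 (1.35 and 0.893) and Zbtb16 (0.877 and 0.806) were lower with G108. Sgk1, Per1, Tsc22d3 and Dusp1 were higher. In the other 3 comparisons 0 genes of these 4 lists were called.

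In scaled values, mice of the same group, culled on the same day, differed more in 7 of the 8 clock genes than in the median gene, but with TPM as deposited in only 3. The pooled SD within groups of log2(scaled TPM + 1) was 0.550 for Per2, 0.372 for Nr1d1, 0.330 for Per3, 0.310 for Per1, 0.290 for Cry1, 0.263 for Dbp, 0.240 for Nr1d2 and 0.112 for Clock, against a median of 0.205 over all genes tested. Per2 lay above 93.0% of genes and Clock above 11.6%. The added 1 narrows the spread of low genes such as Clock and Cry1, so their rank here cannot be taken as a smaller relative spread. The median over the 8 clock genes was 0.2997. Without vehicle SP mouse 4 the SD was 0.256 for Per2 and 0.164 for Per3, and 0.389 for Nr1d1, then the highest of the 8, against a median of 0.175 over all genes. The spread of Nr1d1 was alike in the 4 groups, 0.349 to 0.390, while that of Per2 was 0.991 in vehicle SP and 0.201 to 0.315 in the others. With TPM as deposited the SD was 0.475 for Per2, 0.384 for Cry1 and 0.281 for Nr1d1, and 0.163 (Nr1d2) to 0.241 (Per3) for the other 5, against a median of 0.253 over all genes tested.

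Deviations of the mice from their group means were compared between genes, over 16 mice, as a description without a test. The values of a mouse share 1 library and its scaling. Dbp, Nr1d1 and Nr1d2 varied together, at r = 0.778 for Nr1d1 with Dbp (rho = 0.615), 0.812 for Nr1d2 with Dbp (rho = 0.779) and 0.622 for Nr1d1 with Nr1d2 (rho = 0.521). Cry1 varied against them, at r = -0.800 with Nr1d1 (rho = -0.662), -0.772 with Dbp (rho = -0.712) and -0.690 with Nr1d2 (rho = -0.597). Mice with more Dbp and Nr1d1 than their group mean tended to have less Cry1. Leaving out the 2 mice farthest from the median of the first-named gene gave 0.524 to 0.824 for the positive relations and -0.623 to -0.735 for those of Cry1. Without vehicle SP mouse 4 the same relations were at 0.795 to 0.826 and -0.658 to -0.848. In both repeats the group means still held the mice left out, so their part was not fully removed. With TPM as deposited all 6 kept their sign and were weaker, at 0.248 to 0.644 and -0.142 to -0.556.

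The period genes were also positive with each other. In the r given below without vehicle SP mouse 4, the mean of its group still held that mouse. These r were weaker, but they do not show how much of the relations would remain without it. Per1 with Per2 was at r = 0.834 (rho = 0.709) and at 0.676 without that mouse. Per2 with Per3 was at 0.841 (rho = 0.538) and at 0.568 without it, and Per1 with Per3 at 0.725 (rho = 0.324) and 0.439. Per3 went with Nr1d2 at 0.820 (rho = 0.685), and 0.694 without that mouse, and with Dbp at 0.588 (rho = 0.638) and 0.572. Clock ran against Per2 at r = -0.812 (rho = -0.727), and at -0.703 without that mouse. As deposited these r were 0.749 for Per1 with Per2, 0.785 for Per2 with Per3, 0.503 for Per1 with Per3, 0.610 for Per3 with Nr1d2, 0.226 for Per3 with Dbp and -0.409 for Clock with Per2.

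**Figure D5:**
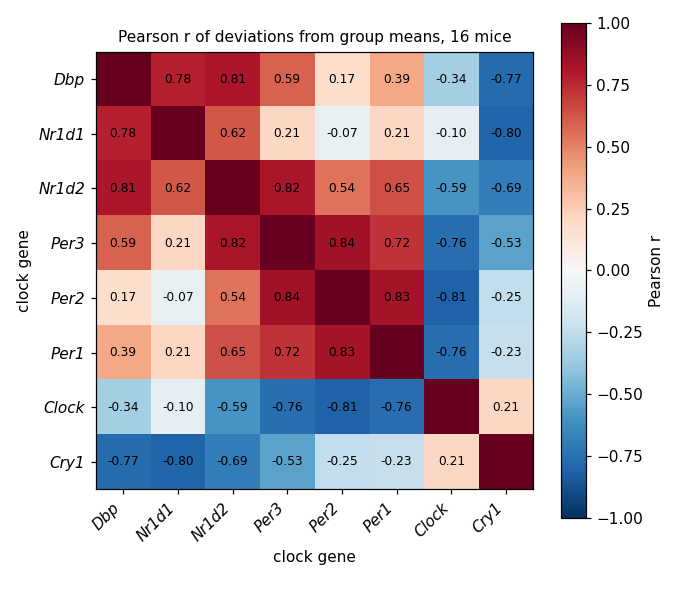
Pearson r between the 8 clock genes tested of the deviations of 16 mice from their group means in log2(scaled TPM + 1), with red above 0 and blue below. Dbp, Nr1d1 and Nr1d2 are positive with each other (0.62 to 0.81) and negative with Cry1 (-0.69 to -0.80), and Per1, Per2 and Per3 are positive with each other (0.72 to 0.84).

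Arntl, the anchor of the loop, showed no relation that passed. Over the 16 mice its deviations correlated with those of the other 9 genes at r = -0.174 (Clock) to 0.411 (Per1), with two-sided permutation p of 0.126 to 0.812 over 100000 permutations within groups. For Per1 rho was 0.515 (permutation p = 0.0949). Without the 2 mice farthest in Arntl, G108 HP mice 3 and 4, r was 0.239, with those mice still in the group means. With vehicle SP mouse 4 left out and the group means refitted, the r of Arntl with Per1 was 0.566 (limma unadjusted p = 0.0422, adjusted p = 0.238). With Nr1d1, its repressor, r was 0.366 (permutation p = 0.244, rho = 0.141, permutation p of rho = 0.641) and 0.0963 without those 2 mice. In limma, the slope on Arntl called 0 of the 8 genes (adjusted p from 0.470) and 0 of 11839 genes (0%), with 1150 at an unadjusted p under 0.05. With 26 to 68 reads, counting error takes up part of the spread of Arntl. The genes most like Arntl were Igkc (r = 0.853), mt-Tw (0.852), Gm42457 (0.841), Snora33 (0.830) and Snord52 (0.811), and the most opposed were Sbk1 (-0.885), Mid1ip1 (-0.837), Abcb6 (-0.834), Enpp1 (-0.818) and Gm17349 (-0.811). None of these 10 is a clock gene of the lists, and the smallest limma adjusted p among them was 0.245.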

How the data were processed

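Liver RNA from 16 mice, 4 per group, was sequenced in 1 library each. The values deposited by the authors are TPM, made by quality control with FastQC 0.11.8, alignment to GRCm38 with HISAT2 2.0.5, counting with featureCounts and division by exon length and library total, and the authors compared groups with DESeq2 1.36.0 on counts not used here. Depth was recovered from low TPM values, of which 98.9% of 104546 lay within 0.02 of a whole read.

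The 10 clock genes and the other gene lists were chosen with earlier results of these data known, and the other lists are described by counts and medians. Genes were matched by Ensembl identifier. The named genes are all 10 clock genes, up to 4 called genes per other list and comparison, and the 5 genes most and least like Arntl. Further genes of the lists are named for vehicle SP mouse 4 and for directions within the glucocorticoid list. TPM were divided by median-of-ratios factors from 11591 genes and tested as log2(scaled TPM + 1) in limma 3.58.1 (R 4.3.3) with 4 group means, an intensity trend and Benjamini-Hochberg adjustment over 11839 genes with a mean of at least 1 TPM as deposited, at a threshold of 0.05. Fold changes on this scale understate those of low genes. The limma script was tested on simulated data. Correlations and figures were made in Python 3.11.15 with scipy 1.17.1 and matplotlib 3.10.9. Alternatives were TPM as deposited, a pseudocount of 0.1, no filter, only the groups compared, a replicate block, limma voom on recovered reads and leaving out each library in turn. Ratios between clock genes, their background over all gene pairs and the repeats of gene lists and correlations without vehicle SP mouse 4 were added after seeing the data. The labels give 1 mouse per library, and p-values measure the spread between mice. Labels and the study's methods differ on the age at the start of the diet, the day of the cull and the time on the first high fat diet, which in the methods was followed by a lead-in on the SP or HP diet before treatment. The report gives the labels' values.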

Additional observations from a re-analysis of the deposited data

Results flagged for a closer look

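Per2 in vehicle SP mouse 4 was at 35.6 scaled TPM while the other 3 mice of the group were between 7.46 and 9.05, a gap of 0.943 of the range of the group, past Dixon's 95% critical value for 4 samples. It was the only value past it in the 40 groups examined (10 genes in 4 groups), of which chance would mark about 1 in 20. The same library had the highest blood marker sum of the 16 (1560 scaled TPM), and its part in the Per2 value was not tested.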

How the results depend on the processing

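Of 0 clock genes called on SP and on HP, TPM as deposited gave 6 and 1. Leaving out each library in turn gave 0 to 1 on HP. Without scaling these log2 fold changes changed sign: on SP Per2 0.09, Per3 0.22, Nr1d1 0.59 and Dbp 0.59, on HP Per3 0.04 and Dbp 0.01, for HP against SP with G108 Per1 -0.14 and Per3 -0.25, and with vehicle Per1 0.08, Nr1d1 0.13, Nr1d2 0.16 and Dbp 0.05. The interaction became -0.22 for Per1, -0.19 for Per3, -0.13 for Cry1 and -0.58 for Dbp. The r with Arntl became 0.16 for Clock, -0.01 for Per2, -0.41 for Per3, 0.21 for Cry1, 0.00 for Nr1d1, -0.32 for Nr1d2 and -0.42 for Dbp. The cause was not tested.

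The labels number the mice 1 to 4 in every group, but same-numbered mice did not deviate together (r over 0.1 in 8 of 24 pairs, median -0.03, and 0 libraries best with their own number in all other groups). A replicate block on these numbers left the clock genes called at 0, and called over all genes 213 on SP, 35 on HP and 1 between the diets with vehicle. Calls over all genes otherwise differed by over 1.5 times as deposited on SP (9185), with only the groups compared (103 on SP, 52 on HP) and without the filter (43 on HP, and 1 each for HP against SP with vehicle and the interaction). Leaving out each library in turn gave 152 to 471 on SP, 17 to 209 on HP and 0 to 2 between the diets with vehicle.

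Leaving out each library in turn also turned the sign of small values. Clock ranged from -0.04 to 0.04 on HP, from -0.05 to 0.00 for HP against SP with G108 and from -0.02 to 0.13 with vehicle. With vehicle, HP against SP ranged from -0.24 to 0.12 for Per1, from -0.41 to 0.05 for Per3, from -0.06 to 0.22 for Cry1, from -0.23 to 0.11 for Nr1d1 and from -0.13 to 0.13 for Nr1d2, and with G108 from -0.13 to 0.00 for Nr1d2. The interaction ranged from -0.20 to 0.06 for Nr1d2 and from -0.08 to 0.17 for Dbp. The r with Arntl ranged from -0.29 to 0.02 for Clock, from -0.03 to 0.12 for Per3, from -0.25 to 0.08 for Cry1, from -0.04 to 0.25 for Nr1d2 and from -0.16 to 0.13 for Dbp. None of these values passed the threshold in any of these fits. Depth limits Arntl and Npas2, whose read counts are low.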
